A study of Homo sapiens with 6 samples.

Results

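The 51 genes of the TGF-beta and BMP pathways described here were chosen by name as ligands, latent-complex and processing proteins, antagonists, receptors, SMAD proteins, intracellular inhibitors and targets. Earlier results of these data were known when the genes were chosen. All 51 were found among the 60554 gene identifiers counted. Cells of 3 libraries carried lentiviral ZBTB7B with the substitution R363L in its zinc-finger domain (ZFmut), and cells of the other 3 carried lentiviral wild-type ZBTB7B (WT). ZBTB7B is a zinc-finger transcription factor. Both groups were Daoy cells, an established human medulloblastoma line, kept for 4 days in medium with 10% FBS and exposed for 72 hr to 15 infectious particles per cell, and no library without a transgene was analysed here. The series belongs to work on kinases in spinocerebellar ataxia type 1. The comparison asks which transcripts differ when the zinc-finger domain of the overexpressed factor is altered.

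TGF-beta, activin and BMP ligands are secreted dimers that bring together type I and type II receptor kinases at the cell surface. The type I receptor phosphorylates receptor SMADs, which enter the nucleus with SMAD4. SMAD2 and SMAD3 mainly serve TGF-beta and activin, and SMAD1, SMAD5 and SMAD9 mainly serve BMPs. Latent TGF-beta is held in the matrix by LTBP proteins, BMPs are sequestered by antagonists such as noggin and gremlin, and the signal is dampened inside the cell by SMAD6 and SMAD7. The ID genes, which encode inhibitors of basic helix-loop-helix transcription factors, are the classic BMP-induced genes. In the cerebellum, BMPs are known to restrain proliferation of granule neuron precursors, from which some medulloblastomas arise.

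Counts assigned to genes ranged from 22236214 to 102730428 per library, a 4.62-fold range. Levels are TMM-normalised CPM, counts scaled to a common library total, differences are log2 ZFmut minus WT with the standard error (SE) of the fit, and a gene is called higher or lower at an edgeR adjusted p under 0.05 across 18683 tested genes. The labels do not state whether libraries of 1 group derive from independent cultures; the p-values therefore reflect only how far these libraries scatter, which may be technical scatter. ZBTB7B itself reached 555, 547 and 627 CPM in ZFmut libraries 1 to 3, against 899, 863 and 951 CPM in WT libraries 1 to 3, so the groups differed in the amount of ZBTB7B transcript as well as in the substitution, and their parts cannot be told apart. Of 11 markers of medulloblastoma or neural precursors, 10 reached 1 CPM in at least 1 group mean, and ATOH1 had 0 to 4 reads per library. Of 6 immune markers 1 did so (CD4), and it was called higher in ZFmut (0.77, edgeR adjusted p = 0.02536). The immune marker CD68 had 0 to 4 reads per library, and 81.7% of its exonic sequence overlaps another gene on its own strand. Among the neural markers SOX2 (0.84), NES (0.45) and SFRP1 (0.21) were called higher in ZFmut and MAP2 (-1.30), GLI1 (-0.34) and PTCH1 (-0.14) lower. Of 5 epithelial markers 4 reached 1 CPM; KRT8 (461 CPM with ZFmut and 263 CPM with WT) and KRT18 were called higher, CDH1 was called lower (-2.69), and ESRP1 and EPCAM were not called. Of 4 glial markers 3 reached 1 CPM, with OLIG2 (0.64) and GFAP (0.80) called higher and AQP4 (-4.05) and MBP (-0.94) lower, at sums of 7.45 to 7.68 CPM with ZFmut and 7.77 to 8.13 CPM with WT. The part of these markers in the results was not tested. With bulk RNA, fewer cells of a type and less RNA per cell cannot be told apart.

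ZFmut libraries had lower transcript levels of all 4 ID genes, of the receptor SMADs SMAD3 and SMAD9, of the TGF-beta receptors TGFBR1 and TGFBR2 and of the ligand BMP6, and higher levels of TGFB1, BMP4 and LTBP3. Of the 51 genes, 50 passed the low-count filter, 9 of them were higher, 20 were lower and 21 were not called. The calls are 58% of the tested members, where 35.6% of all tested genes were called (17.2% higher and 18.4% lower). The members were chosen with earlier results of these data known, so the larger share is no independent evidence about the pathways. The median log2 difference of the members was -0.12, beside -0.0041 over all tested genes, and the median absolute difference was 0.34 beside 0.19. Among the members 14 were called with an absolute difference of at least 0.5, where 13.2% of all tested genes were, and 3 with one of at least 1 (BMP6, NOG and SMAD9), where 4.2% of all tested genes were. The libraries of the groups did not overlap for 33 of the 50 members, and 47.2% of all tested genes had no overlap. Most members are well expressed, and calls are more frequent among expressed genes: when testing was limited to genes reaching 5 CPM in 3 libraries, 9 of 45 members were higher and 19 lower, where 44.5% of all such genes were called.

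**Figure D1:**
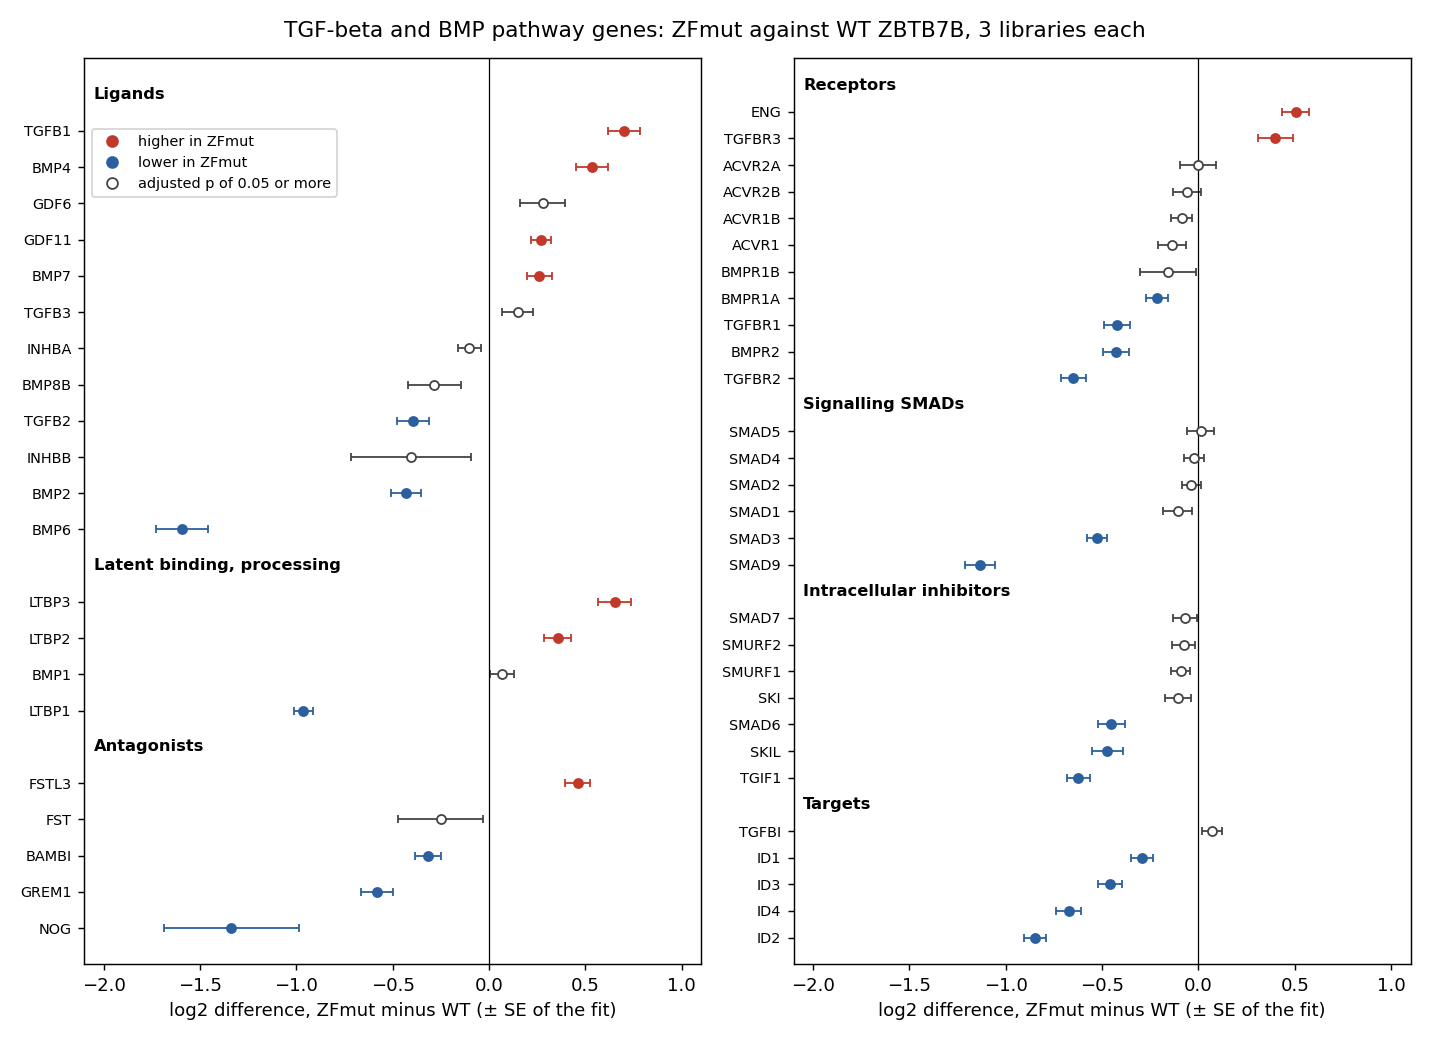
Log2 difference (ZFmut minus WT) with the SE of the edgeR fit for the 50 tested genes, grouped by role; filled points are called at an adjusted p under 0.05. The ID genes run from -0.85 to -0.29, ligands fall on both sides of 0, and the intracellular inhibitors run from -0.62 to -0.07 (SMURF2, not called, is at 0.08 after each library is corrected for trends with GC content and exon length).

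Of the 5 targets of the pathway, 4 were lower in ZFmut and 1 was not called, where 18.4% of all tested genes were called lower. ID2 (ENSG00000115738.9, GRCh38 chromosome 2, 8678845 to 8684453, plus strand) stood at 40.9, 42.2 and 42.3 CPM in ZFmut libraries, against 79.9, 73.0 and 73.2 CPM in WT libraries. The ZFmut libraries lay within 2 CPM of each other and far below the lowest WT library, with a log2 difference of -0.85 ± 0.06 (edgeR adjusted p = 4.615e-08). ID4 (ENSG00000172201.10, chromosome 6, 19837386 to 19840684, plus strand) reached 27.9, 32.9 and 31.6 CPM with ZFmut, against 47.9, 49.6 and 50.3 CPM with WT (-0.67 ± 0.07, edgeR adjusted p = 2.33e-06). ID3 (ENSG00000117318.8, chromosome 1, 23557918 to 23559794, minus strand) had 231, 271 and 264 CPM in ZFmut libraries and 339, 362 and 354 CPM in WT libraries. The difference was -0.46 ± 0.06 (edgeR adjusted p = 5.021e-05), and the groups were separate. ID1 (ENSG00000125968.8, chromosome 20, 31605283 to 31606515, plus strand) gave the smallest difference of the family, -0.29 ± 0.06, at 178, 201 and 187 CPM with ZFmut and 226, 234 and 234 CPM with WT (edgeR adjusted p = 0.000934). All 4 calls held in each of the 16 alternative fits. TGFBI, a secreted matrix protein named for its induction by TGF-beta, did not pass, at a log2 difference of 0.07 (95% interval -0.04 to 0.18). It was the most abundant member per length, at 782 ± 53.1 CPM per kilobase of exon in ZFmut libraries and 745 ± 29.9 in WT libraries (SD, n = 3 each).

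**Figure D2:**
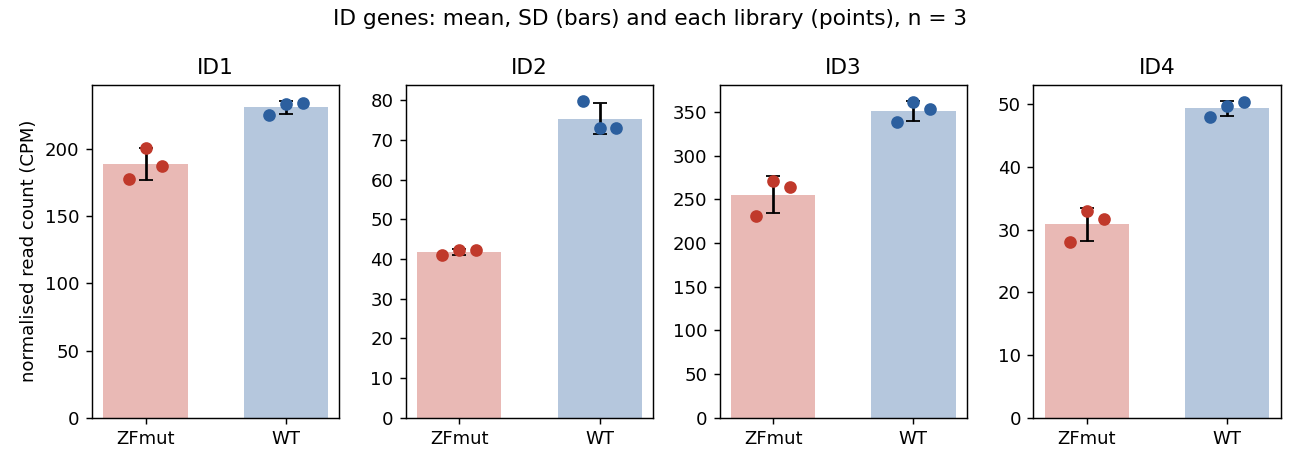
CPM of ID1 to ID4 in ZFmut and WT libraries; bars are means from 0, error bars the SD and points the 3 libraries of each group. In every panel the highest ZFmut library lies below the lowest WT library, with the widest gap for ID2 relative to its level.

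The regions just upstream of the ID genes and of SMAD6, a gene lower in ZFmut that BMP signalling is known to induce, are shown because all 5 genes were lower in ZFmut. Each line gives the 250 bases that precede the RefSeq start on GRCh38.p14, read 5′ to 3′ on the gene's strand. Capitals mark CAGAC or its reverse complement GTCTG, the palindromes GTCTAGAC and GGCGCC, which are letters that SMAD proteins are known to bind, and TATAAA on the gene's strand, a TATA box, which was added after the sequences had been read. The windows are chr20:31605039-31605288 (plus strand) for ID1, chr2:8681806-8682055 (plus) for ID2, chr1:23559502-23559751 (minus) for ID3, chr6:19837120-19837369 (plus) for ID4 and chr15:66701986-66702235 (plus) for SMAD6.
ID1: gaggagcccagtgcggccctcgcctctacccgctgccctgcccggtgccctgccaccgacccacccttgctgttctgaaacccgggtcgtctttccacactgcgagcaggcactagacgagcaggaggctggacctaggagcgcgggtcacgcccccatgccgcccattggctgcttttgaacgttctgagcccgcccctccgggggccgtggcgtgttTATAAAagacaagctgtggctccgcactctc
ID2: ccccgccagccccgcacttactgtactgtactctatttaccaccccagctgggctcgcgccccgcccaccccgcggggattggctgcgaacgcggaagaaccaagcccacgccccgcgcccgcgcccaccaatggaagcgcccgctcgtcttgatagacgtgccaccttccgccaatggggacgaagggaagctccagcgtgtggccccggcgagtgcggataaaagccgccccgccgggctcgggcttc
ID3: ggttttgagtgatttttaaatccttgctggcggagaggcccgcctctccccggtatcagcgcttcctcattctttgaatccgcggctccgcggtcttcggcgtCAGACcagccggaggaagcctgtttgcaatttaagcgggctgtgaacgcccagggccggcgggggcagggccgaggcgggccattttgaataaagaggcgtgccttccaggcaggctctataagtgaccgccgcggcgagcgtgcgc
ID4: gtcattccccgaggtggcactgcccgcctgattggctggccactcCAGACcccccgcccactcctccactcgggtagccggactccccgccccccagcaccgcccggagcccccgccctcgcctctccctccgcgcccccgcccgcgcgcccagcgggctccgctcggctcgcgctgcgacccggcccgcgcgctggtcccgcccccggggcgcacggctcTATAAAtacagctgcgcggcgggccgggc
SMAD6: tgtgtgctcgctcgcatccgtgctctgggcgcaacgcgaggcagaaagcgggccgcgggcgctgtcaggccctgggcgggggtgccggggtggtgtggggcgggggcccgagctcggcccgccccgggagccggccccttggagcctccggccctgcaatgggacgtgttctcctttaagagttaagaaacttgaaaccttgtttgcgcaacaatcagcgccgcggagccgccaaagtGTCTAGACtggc

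GTCTAGAC lies in the SMAD6 window, ending 4 bases before the start; of 35116 RefSeq promoter windows of this length, 64 (0.182%) hold it, and of the 45 member genes with a window SMAD6 was the only one. CAGAC, which 38% of all windows hold on either strand, lies 142 bases before the start of ID3 and 200 before that of ID4. The windows of ID1 and ID4 hold TATAAA, 25 and 23 bases before the start, a motif present in 6.8% of all windows. GGCGCC, held by 16.4% of all windows, is in none of the 5 shown, and the ID2 window holds none of the motifs searched. No matches overlapped in these windows. The 45 member genes have 82 windows, of which 32 hold CAGAC and 18 hold GGCGCC. These matches are descriptions of the letters and say nothing of binding in these cells.

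Among the ligands, 4 were higher, 3 lower and 5 not called, and 1 was not tested. Over all tested genes, 17.2% were called higher and 18.4% lower. TGFB1 (ENSG00000105329.9, chromosome 19, 41301587 to 41353911, minus strand), the prototype of the family, stood at 290.2, 334 and 352 CPM in ZFmut libraries, against 174, 221 and 207 CPM in WT libraries. Every ZFmut library lay above every WT library, with a difference of 0.70 ± 0.08 (edgeR adjusted p = 1.822e-05). TGFB2 went the other way, at 25.5, 20.9 and 23.8 CPM with ZFmut against 33.3, 28.1 and 31.5 CPM with WT (-0.40 ± 0.08, edgeR adjusted p = 0.001728). After each library was corrected for trends with GC content and exon length, the TGFB1 difference was 0.56 and the TGFB2 difference -0.24. For TGFB2, 26.6% of the exonic sequence overlaps another gene on its own strand. TGFB3 did not pass (0.15, 95% interval -0.02 to 0.32). Per length, TGFB1 was by far the leading isoform, with 93.2 ± 1.02% of the summed level of the 3 TGFB genes in ZFmut libraries and 87.9 ± 2.06% in WT libraries (SD, n = 3 each).

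BMP6 (ENSG00000153162.8, chromosome 6, 7726797 to 7881422, plus strand), a BMP ligand known for its role in iron balance in the liver, had the largest absolute difference among the 50 tested members. It reached 1.61, 2.25 and 2.38 CPM in ZFmut libraries and 6.36, 6.69 and 6.65 CPM in WT libraries. It was 3.02-fold lower with ZFmut (log2 difference -1.59 ± 0.13, edgeR adjusted p = 5.42e-07). BMP2, a ligand of bone and heart development, was at 10.1, 10.4 and 10.2 CPM with ZFmut and 14.1, 13.1 and 14.3 CPM with WT (-0.43 ± 0.08, edgeR adjusted p = 0.0005657). BMP4 (ENSG00000125378.15, chromosome 14, 53949736 to 53958761, minus strand), the closest relative of BMP2, was higher, at 15.7, 17.8 and 17.8 CPM with ZFmut against 12.5, 12.1 and 11.02 CPM with WT. Its difference was 0.53 ± 0.08 (edgeR adjusted p = 0.0001401), and its groups did not overlap. BMP7, a ligand of kidney and nervous system, was higher by 0.26 ± 0.07 (edgeR adjusted p = 0.00603), a call lost when ZFmut replicate 3 was left out (0.22, edgeR adjusted p = 0.05136). GDF11, which acts in patterning of the body axis, was higher by 0.27 ± 0.05 (edgeR adjusted p = 0.001322).

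The mixture of BMP transcripts differed accordingly. Of the level per length summed over BMP2, BMP4, BMP6 and BMP7, BMP6 made up 4.63 ± 0.713% in ZFmut libraries and 14.9 ± 0.273% in WT libraries. BMP4 made up 34.5 ± 0.919% with ZFmut and 24.3 ± 1.79% with WT, and BMP7 43.2 ± 1.05% with ZFmut and 36.6 ± 1.80% with WT (SD, n = 3 each). The other ligands were not called: INHBA, the activin A subunit gene, was at -0.10 (95% interval -0.23 to 0.03), GDF6 at 0.28 (0.03 to 0.53), BMP8B at -0.28 and INHBB, the activin B subunit gene, at -0.40. BMP8B was called lower after the GC and length correction (-0.37, edgeR adjusted p = 0.0273), and GDF6 was called higher after thinning all libraries to the smallest (0.53, edgeR adjusted p = 0.03298). INHBB rested on 12 to 33 reads per library. GDF5 failed the filter with 6, 7 and 8 reads in ZFmut libraries and 4, 9 and 9 in WT libraries, and 35.2% of its exonic sequence overlaps a gene on the other strand.

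Latent-binding proteins showed opposite differences within their family. LTBP1 (ENSG00000049323.15, chromosome 2, 32946972 to 33399509, plus strand), which tethers latent TGF-beta to the matrix, had 114, 109.5 and 112 CPM in ZFmut libraries and 218 CPM in each of the 3 WT libraries. The log2 difference was -0.97 ± 0.05 (edgeR adjusted p = 3.701e-09), the smallest adjusted p among the members. LTBP3 (ENSG00000168056.14, chromosome 11, 65538805 to 65558930, minus strand), a further carrier of latent TGF-beta, was higher at 351, 385 and 417 CPM with ZFmut against 209, 273 and 252 CPM with WT (0.65 ± 0.09, edgeR adjusted p = 3.854e-05). LTBP2, a related protein of elastic fibres that does not bind latent TGF-beta, was higher by 0.36 ± 0.07 (edgeR adjusted p = 0.001106). LTBP1 accounted for 24.5 ± 1.75% of the level per length of the 3 genes with ZFmut and 48.7 ± 3.21% with WT, and LTBP3 for 59.7 ± 1.60% with ZFmut and 38.7 ± 2.80% with WT. With the longest annotated transcript as each gene's length, chosen after seeing the data, the LTBP1 share was 15.4% with ZFmut and 35.4% with WT, and the LTBP3 share 75.4% with ZFmut and 56.2% with WT, so that LTBP3 then led in both groups. BMP1, a protease that cleaves LTBP1 and procollagens and no BMP ligand despite its name, was at 0.07 and not called.

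**Figure D3:**
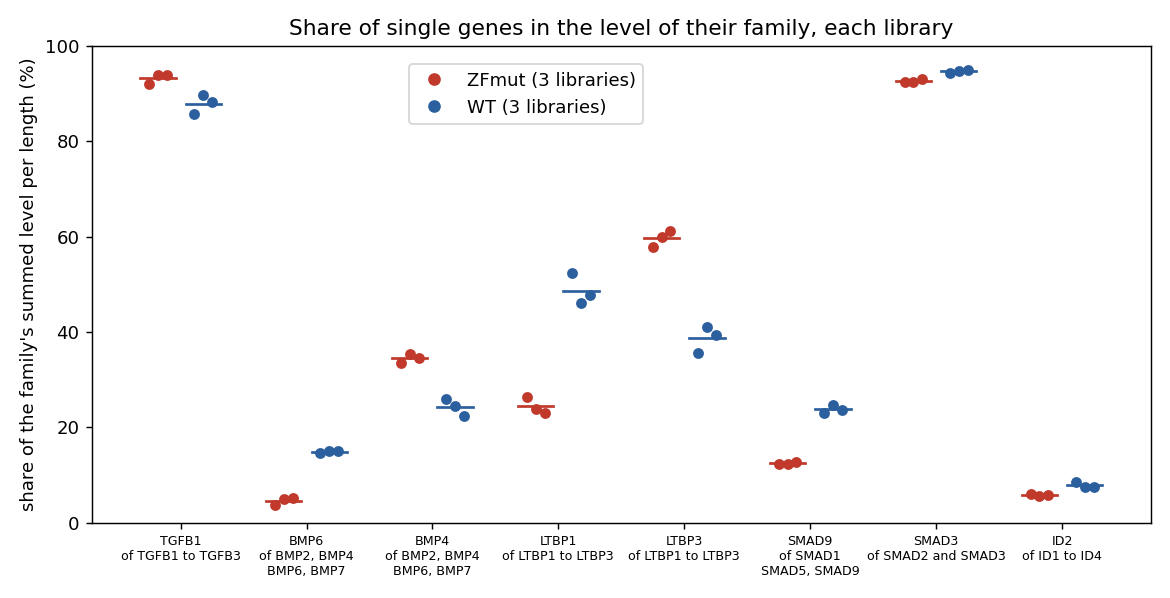
Share (%) of single genes in the level per length summed over their family, for each of the 3 ZFmut and 3 WT libraries (points) with group means (lines). The shares of BMP6, LTBP1, SMAD9 and ID2 are lower in all ZFmut libraries than in any WT library, and those of TGFB1, BMP4 and LTBP3 are higher.

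Of the 5 antagonists, 3 were lower and 1 higher, where 18.4% of all tested genes were called lower and 17.2% higher. NOG (ENSG00000183691.4, chromosome 17, 56593699 to 56595590, plus strand), which encodes the BMP trap noggin, was counted at only 4, 4 and 22 reads in ZFmut libraries and 10, 36 and 15 in WT libraries, or 0.178, 0.167 and 0.216 CPM against 0.345, 0.633 and 0.475 CPM. Its difference of -1.34 ± 0.35 (edgeR adjusted p = 0.008112) lost the call without WT replicate 2 (-1.04, edgeR adjusted p = 0.09397). NOG was tested in only 14 of the 16 alternative fits and called in 13. It failed the stricter filter and the filter after thinning. GREM1 (ENSG00000166923.10, chromosome 15, 32717974 to 32745107, plus strand), the gene of gremlin, which binds BMP2 and BMP4, was at 22.9, 18.7 and 20.7 CPM with ZFmut against 32.4, 28.3 and 32.8 CPM with WT (-0.58 ± 0.08, edgeR adjusted p = 7.303e-05). BAMBI, a decoy receptor without a kinase domain, was lower at -0.32 ± 0.07 (edgeR adjusted p = 0.002204). FSTL3, which neutralises activins and myostatin, was higher at 58.9, 65.3 and 70.0 CPM with ZFmut against 44.8, 49.2 and 47.6 CPM with WT (0.46 ± 0.07, edgeR adjusted p = 9.01e-05). FST, the gene of follistatin, stood at 0.751 to 1.34 CPM with ZFmut and 1.00 to 1.43 CPM with WT and was not called.

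Among the 11 receptors, 4 were lower, 2 higher and 5 not called, where 18.4% of all tested genes were called lower and 17.2% higher. TGFBR2 (ENSG00000163513.17, chromosome 3, 30606502 to 30694142, plus strand), the type II receptor that binds TGF-beta, had 34.0, 33.8 and 34.7 CPM in ZFmut libraries and 55.8, 49.3 and 56.1 CPM in WT libraries. The groups were separate, with a difference of -0.65 ± 0.06 (edgeR adjusted p = 2.331e-06). TGFBR1, its type I partner, was at 78.1, 64.0 and 68.7 CPM with ZFmut against 97.1, 88.2 and 96.8 CPM with WT (-0.42 ± 0.07, edgeR adjusted p = 0.000248). The type II BMP receptor gene BMPR2 was at 75.0, 61.5 and 65.9 CPM with ZFmut and 92.9, 88.1 and 90.9 CPM with WT (-0.43 ± 0.06, edgeR adjusted p = 0.0001404). With the GC and length correction TGFBR1 was at -0.27 (edgeR adjusted p = 3.168e-05) and BMPR2 at -0.25 (edgeR adjusted p = 2.974e-05). BMPR1A, a type I BMP receptor, was lower at -0.22 ± 0.06 (edgeR adjusted p = 0.007508), and not called after that correction (-0.06, edgeR adjusted p = 0.3571). The transcripts of these 3 genes have a GC content of 37.6 to 40.6%.

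Both co-receptor genes among the 51 members, ENG and TGFBR3, were higher. ENG (ENSG00000106991.13, chromosome 9, 127815012 to 127854756, minus strand), which encodes endoglin, stood at 97.5, 114 and 111 CPM with ZFmut against 69.0, 79.7 and 78.7 CPM with WT (0.50 ± 0.07, edgeR adjusted p = 5.279e-05). Endoglin is best known from endothelial cells. Of 4 endothelial markers, 2 reached 1 CPM in at least 1 group mean, and both were called higher. PECAM1 had means of 1.37 CPM with ZFmut and 0.30 CPM with WT (2.10, edgeR adjusted p = 4.091e-05). TEK had means of 19.9 CPM with ZFmut and 12.4 CPM with WT (0.67, edgeR adjusted p = 3.206e-05). KDR was not called, and CDH5 had 0 to 3 reads per library. The list summed to 20.5 to 24.2 CPM in ZFmut libraries and 12.8 to 13.8 CPM in WT libraries. The part of these markers in the ENG result was not tested. TGFBR3, the gene of betaglycan, which presents TGF-beta2 to its receptors, was higher by 0.40 ± 0.09 (edgeR adjusted p = 0.002815), a call that ended when all libraries were thinned to the smallest (0.29, edgeR adjusted p = 0.07776). The activin receptor genes ACVR1B, ACVR2A and ACVR2B and the BMP type I receptor genes ACVR1 and BMPR1B were not called, with differences between -0.16 and -0.0033. Their unadjusted 95% intervals were -0.20 to 0.03 for ACVR1B, -0.21 to 0.20 for ACVR2A, -0.21 to 0.09 for ACVR2B, -0.29 to 0.02 for ACVR1 and -0.47 to 0.15 for BMPR1B.

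Of the 6 signalling SMAD genes, 2 were lower and 4 not called. The called share was 33.3%, where 35.6% of all tested genes were called, so the count does not exceed the background. SMAD9 (ENSG00000120693.13, chromosome 13, 36844831 to 36920765, minus strand), also called SMAD8, a receptor SMAD of the BMP branch, reached 11.8, 10.1 and 11.6 CPM in ZFmut libraries against 25.0, 25.2 and 23.6 CPM in WT libraries. It was 2.19-fold lower, at -1.13 ± 0.08 (edgeR adjusted p = 6.251e-08), and stayed between -1.21 and -1.03 in all 16 alternative fits. The other BMP-branch genes were not called: SMAD1 was at -0.11 (95% interval -0.27 to 0.05) and SMAD5 at 0.01 (-0.14 to 0.16). SMAD9 therefore held 12.5 ± 0.303% of the level per length of SMAD1, SMAD5 and SMAD9 in ZFmut libraries and 23.8 ± 0.835% in WT libraries (SD, n = 3 each). SMAD3 (ENSG00000166949.15, chromosome 15, 67063763 to 67195195, plus strand), of the TGF-beta branch, was at 272, 267 and 289 CPM with ZFmut and 386, 394 and 414 CPM with WT (-0.53 ± 0.05, edgeR adjusted p = 3.172e-06). It was the most abundant SMAD gene per length, at 30.3 ± 1.26 CPM per kilobase of exon with ZFmut and 43.7 ± 1.60 with WT. SMAD2 was at -0.04 (-0.14 to 0.07) and SMAD4, the partner of all receptor SMADs, at -0.02 (-0.14 to 0.09); with the GC and length correction they were higher in ZFmut by 0.16 (edgeR adjusted p = 0.01206) and 0.13 (edgeR adjusted p = 0.03426), and SMAD5 by 0.19 (edgeR adjusted p = 0.0006179).

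**Figure D4:**
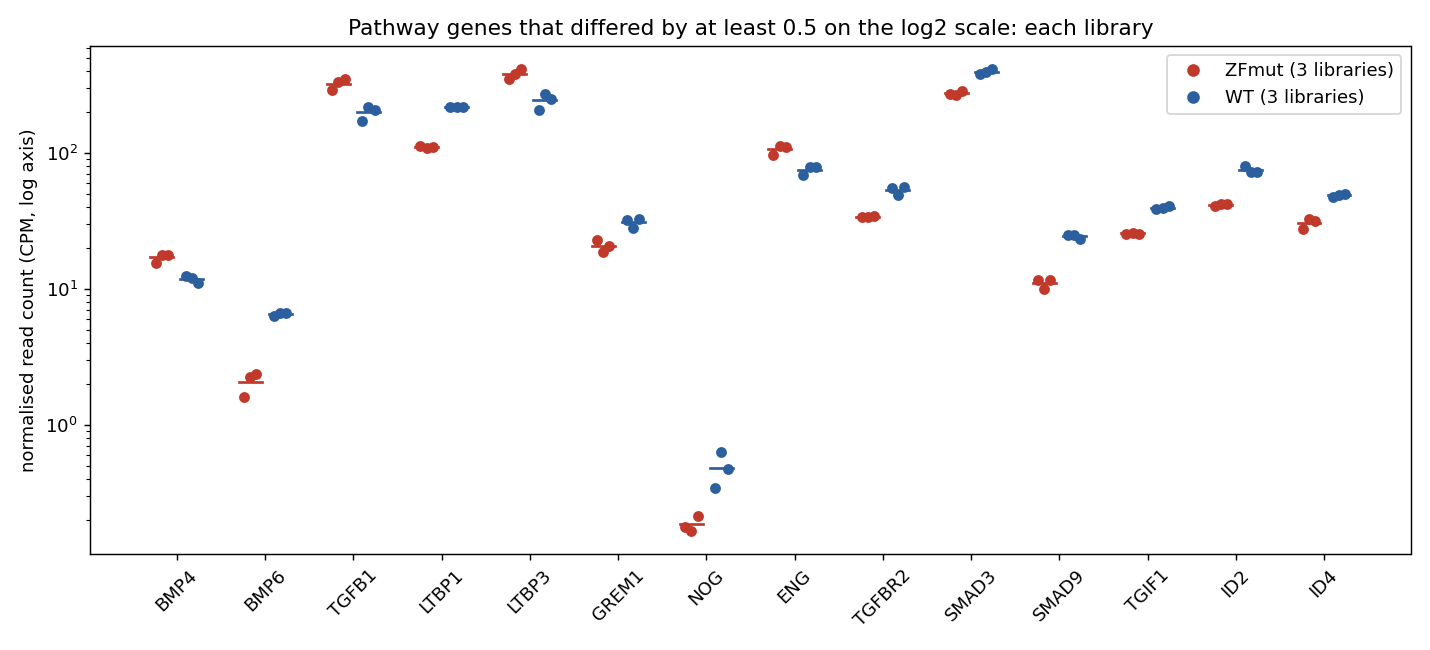
CPM (log axis) in each ZFmut and WT library for the 14 genes called with an absolute log2 difference of at least 0.5, ordered by role; short lines are group means. TGFB1, BMP4, LTBP3 and ENG are higher in all ZFmut libraries than in any WT library, and the other 10 genes are lower.

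Of the 7 intracellular inhibitors, 3 were called lower and 4 were not called. The called share of 42.9% stands beside 35.6% of all tested genes. It was 44.5% of all genes when testing was limited to those reaching 5 CPM in 3 libraries. TGIF1 (ENSG00000177426.20, chromosome 18, 3411608 to 3459978, plus strand), a homeodomain corepressor of SMADs, was at 25.4, 26.1 and 25.7 CPM with ZFmut against 38.8, 39.2 and 40.9 CPM with WT (-0.62 ± 0.06, edgeR adjusted p = 1.808e-06). SMAD6, an inhibitory SMAD that acts mainly on BMP signals, had 55.9, 66.7 and 64.0 CPM in ZFmut libraries and 78.3, 88.3 and 89.0 CPM in WT libraries. Its difference was -0.45 ± 0.07 (edgeR adjusted p = 0.0001465), and the ranges were separate. SMAD7, the inhibitory SMAD that acts on both branches, was at -0.07 (95% interval -0.20 to 0.06) and not called. After the GC and length correction SMAD7 was lower at -0.17 (edgeR adjusted p = 0.001922) and SKI, a corepressor of SMADs, at -0.21 (edgeR adjusted p = 0.000351), while SKI was at -0.10 (-0.25 to 0.04) before it. SKIL, a relative of SKI, was at 130.4, 98.1 and 111 CPM with ZFmut against 164.5, 149 and 158 CPM with WT (-0.47 ± 0.08, edgeR adjusted p = 0.0004037), and at -0.27 (edgeR adjusted p = 3.373e-05) after the correction. SMURF1 and SMURF2, ubiquitin ligases that mark SMADs and receptors for degradation, were at -0.09 and -0.08 and not called, and SMURF2 was at 0.08 after the correction, also not called.

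A list of 79 other genes of the pathways, named by role in the same way, had 59 tested genes, of which 11 were higher in ZFmut, 23 lower and 25 not called. The calls are 57.6% of its tested genes, where 35.6% of all tested genes were called (17.2% higher and 18.4% lower). The median difference of this list was -0.12, close to that of the 51 genes. Both lists were chosen with earlier results of these data known, so their likeness is no independent support. Of the 59 tested genes, 5 were called with an absolute difference of at least 1, where 4.2% of all tested genes were. All 5 were lower. BMP5, a ligand of the BMP6 subgroup, stood at 1.61, 1.33 and 1.59 CPM with ZFmut against 9.43, 6.86 and 8.198 CPM with WT (-2.39 ± 0.15, edgeR adjusted p = 2.581e-08). SOST, the sclerostin gene, which the list places among antagonists, was at -2.12 ± 0.21 (edgeR adjusted p = 3.21e-06). CHRD, the gene of the BMP trap chordin, was at -2.04 ± 0.18 (edgeR adjusted p = 8.867e-07). SOST rested on 8 to 64 reads in ZFmut libraries and 68 to 126 in WT libraries. IGFBP3, a binding protein of insulin-like growth factors that TGF-beta induces in many cells, was at -1.82 ± 0.06 (edgeR adjusted p = 7.756e-11), and ACVRL1, a type I receptor for BMP9 best known in endothelium, at -1.53 ± 0.12 (edgeR adjusted p = 2.621e-07).

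The 20 tested targets of that list did not share a direction, with 7 higher, 8 lower and 5 not called. Of all tested genes, 17.2% were called higher and 18.4% lower. The following were named after their values were seen. The transcription factor genes MSX2 and HEY1, both inducible by BMPs, were lower at -0.87 ± 0.06 (edgeR adjusted p = 8.455e-08) and -0.94 ± 0.06 (edgeR adjusted p = 5.951e-08), whereas ATOH8, a further BMP-inducible gene, was at 0.03 and not called. Outside the targets, the same list held 6 genes of latent binding, with 1 higher, 3 lower and 2 not called. THBS1, an activator of latent TGF-beta, was lower at -0.67 ± 0.06 (edgeR adjusted p = 2.121e-06). FURIN, the protease that cleaves the TGF-beta precursor, was lower at -0.42 ± 0.06 (edgeR adjusted p = 6.89e-05). FBN1 was also lower (-0.27), and LTBP4 was higher (0.40).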

How the data were processed

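The deposited values are raw read counts per gene, whole numbers without normalisation. The submitters' processing notes name GRCh38, TopHat2 2.0.9, HTSeq, cutadapt and DESeq2, without roles. How strand and overlaps were handled in counting, and with which annotation, is not given in the sources used here. The libraries were made with a kit that does not mark strand, per the labels' protocols. The 5 summary lines of each file were left out of library sizes; 7.71 to 8.08% of their total with the gene counts was ambiguous, 5.04 to 6.56% lay outside genes and 16.1 to 19.4% aligned to several places. GENCODE release 29 gave symbols, places and exon lengths for 94.1% of identifiers.

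All 6 libraries were fitted with edgeR 4.0.16 in R 4.3.3 (TMM, filterByExpr, quasi-likelihood F test, two-sided, no covariates), with Benjamini-Hochberg adjustment over all tested genes. Members with an adjusted p under 0.05 and an absolute log2 difference of at least 0.5 are given library by library, others mostly by difference; of the other pathway genes, those with at least 1 are named. The members and lists were chosen with earlier results of these data known. Levels per length use the union of exons. No pair of libraries of a group agreed within sampling noise (chi-square per degree of freedom from 3.57 to 8.94). In simulated data for 18683 genes the fit recovered 42 of 50 genes changed 1.5-fold and 22 of 50 changed 1.2-fold. Only 50 genes were changed at each fold there, where 35.6% of all tested genes were called in the data. These rates therefore need not hold for the members. Alternatives were other scaling factors, DESeq2 1.42.0, limma-voom (limma 3.58.1), no or a stricter filter, each library left out, the replicate block, a GC and length correction (loess span 0.5) with and without the block, and thinning to the smallest library.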

Additional observations from a re-analysis of the deposited data

How the results depend on the processing

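The 9 higher and 20 lower members became 8 to 10 higher and 19 to 21 lower when each library was left out in turn, and 8 to 13 higher and 19 to 24 lower over all 16 alternatives. With a library left out, the share called of all tested genes ran from 25.1% (without ZFmut replicate 3) to 40% (without ZFmut replicate 1). Over all alternatives that share ran from 16.6% (no low-count filter) to 46.5% (replicate block). Without the filter more genes were tested, with 6722 calls among 40559 genes in place of 6649 among 18683. The GC and length correction gave 12 and 22 members, and over all genes 4479 higher and 3247 lower in place of 3207 and 3442 (4765 and 3395 with the replicate block added). The differences of SMAD2 and SMAD4 turned from -0.04 and -0.02, not called, to 0.16 and 0.13 with that correction, and to 0.16 and 0.13 with the replicate block added; the cause was not tested. Same-numbered libraries of the groups deviated together only weakly (correlations 0.164, 0.077 and 0.064), though each correlated best with its own number; the replicate block gave 9 higher and 23 lower members, with 8692 calls over all genes in place of 6649; INHBA (-0.11), SMURF1 (-0.09) and SKI (-0.11) were then called lower. Without ZFmut replicate 1, GDF6 and ACVR1 were called. Both groups hold 3 libraries, and the reads of NOG, INHBB and FST limit what can be said of them.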
